A study of Rattus norvegicus with 23 samples.

Results

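Cytosolic ribosomal proteins are the protein subunits of the ribosome that translates nuclear-encoded mRNA in the cytosol. Probe sets were taken as members where the array annotation gave a single gene symbol starting with Rpl or Rps followed by a digit, or by p and a digit, or the symbol Rpsa, with S6 kinases and symbols marked as pseudogenes left out. This rule found 261 probe sets of 73 genes, of 14506 genes named by a single symbol on the array. Of the members, 68 carry the symbol of a canonical ribosomal protein gene. The other 5 members were Rpl22l1, Rpl36al1, Rpl37l1 and Rps4y2, which are copies of canonical genes, and Rps19bp1, which meets the rule by its letters but is a binding protein of Rps19 and not a subunit. Of the 73 genes, 45 belonged by name to the large subunit and 28, with Rps19bp1 and Rpsa, to the small subunit.

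RNA of whole hearts from Sprague Dawley rats on postnatal day 1 was hybridized to Rat Gene 1.0 ST arrays, 1 heart per array, in 4 groups that pooled males and females. Controls (n = 7) came from dams on control diet injected with citrate buffer on gestational day 14, diabetes exposed hearts (n = 6) from dams on control diet injected with streptozotocin at 65 mg/kg on that day, HF diet exposed hearts (n = 5) from dams on high fat diet injected with citrate buffer, and combination exposed hearts (n = 5) from dams on high fat diet injected with streptozotocin. The diet began at least 28 days before mating and lasted through pregnancy, and diabetic dams received insulin with a glucose target of 200 to 400 mg/dl. The sex of single hearts was not given, and diet and injection were given to the dam, so pups of 1 dam share both. Sample codes of combination hearts 1 and 2 share a stem, as do those of combination hearts 4 and 5 and those of HF diet hearts 3, 4 and 5, and whether a stem marks a litter was not given. Values are log2 intensities that the authors set against the median heart, which is 0 for every probe set. They show how far a heart lies from that median and not how abundant an mRNA is, and whether heart markers are high cannot be read.

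Ribosomal proteins are made in balance with ribosomal RNA, and a growing tissue such as the newborn heart needs a steady supply of new ribosomes. Most of their mRNAs begin with a 5′ terminal oligopyrimidine (TOP) tract, a C followed by further C and T bases, through which mTOR signaling acting on Larp1 sets how much of the mRNA is translated. Because that control acts on translation, mRNA levels as measured here need not follow the output of protein.

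The start of the transcript is the sequence feature that the members are best known to share, and it is shown for genes whose values are described further on. Of the 73 members, 62 matched by symbol an entry in RefSeq's table of gene starts for the rat genome build GRCr8, on 18 chromosomes. An unbroken run of at least 5 C or T bases, its first base C, began within 5 bases of the annotated start, on the transcribed strand, in 29 of the 62 (46.8%), beside 15.2% of all 33469 promoters in the table and 21.5% of 65 promoters of mitochondrial ribosomal protein genes. Each window below holds 30 bases, 15 before the annotated start and 15 from it on, and capitals mark the run of C and T. The first 6 hold such a run and the last 4 do not.
Rps7, chr6:50999431-50999460, minus strand: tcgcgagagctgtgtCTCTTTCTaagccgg
Rpl31, chr9:49143096-49143125, plus strand: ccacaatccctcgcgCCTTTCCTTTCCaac
Rplp1, chr8:71290858-71290887, minus strand: gcaggcgcatgtgatCCTTTCCTCagctgc
Rplp0, chr12:46718376-46718405, minus strand: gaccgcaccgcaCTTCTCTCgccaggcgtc
Rps27, chr2:177964592-177964621, minus strand: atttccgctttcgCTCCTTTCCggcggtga
Rps28, chr7:15311319-15311348, minus strand: gcatcccctgctcacgtgaCTCCTCTCCgc
Rpl22l1, chr2:113683181-113683210, plus strand: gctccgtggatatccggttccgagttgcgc
Rps4y2, chr4:183000898-183000927, plus strand: gcgcgcagctctcctcactcgcttgtgctc
Rpl24, chr11:58128391-58128420, minus strand: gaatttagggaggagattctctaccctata
Rps3, chr1:163195762-163195791, minus strand: ttcctttcagcggcgcgcggcagcaagatg
In Rps7, Rpl31 and Rplp1 the run begins at the annotated start itself. A run whose first C lies more than 5 bases from the annotated start, as at the left end of the Rps3 window, was not counted. This holds also where such a run crosses the start, as in the Rps4y2 window and in Rpl35, so the shares leave these runs out. The letters CCGGAAGT, the core of ETS family sites, were found on either strand in 9.68% of the 62 member promoters of 300 bases and in 3.81% of all promoters, and AAGATGGC, the core of YY1 sites, in 8.06% and 3.17%. Of the 65 promoters of mitochondrial ribosomal protein genes, 8 (12.3%) held the ETS letters and 16 (24.6%) the YY1 letters. Among the 62 member promoters these counts were 6 and 5, so the shares of the ETS letters lay close together.

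Members as a group stood highest in the combination exposed hearts, by a small amount that rested on a pair of hearts. The mean of the 73 genes was 0.106 ± 0.157 (SD, n = 5) in combination exposed hearts, -0.0318 ± 0.0313 (SD, n = 5) in HF diet exposed hearts, -0.0118 ± 0.0325 (SD, n = 6) in diabetes exposed hearts and 0.00407 ± 0.0889 (SD, n = 7) in controls, on the centred log2 scale. The 5 combination exposed hearts had means of 0.35, 0.17, 0.014, -0.050 and 0.051. The first of these lay above every other heart and the second above every heart outside its group, while the other 3 lay within the range of the controls, from -0.118 to 0.119. The 2 high hearts are those of the shared code stem. HF diet exposed hearts lay between -0.0678 and 0.00747 and diabetes exposed hearts between -0.0406 and 0.0325, so both groups lay inside the control range.

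**Figure D1:**
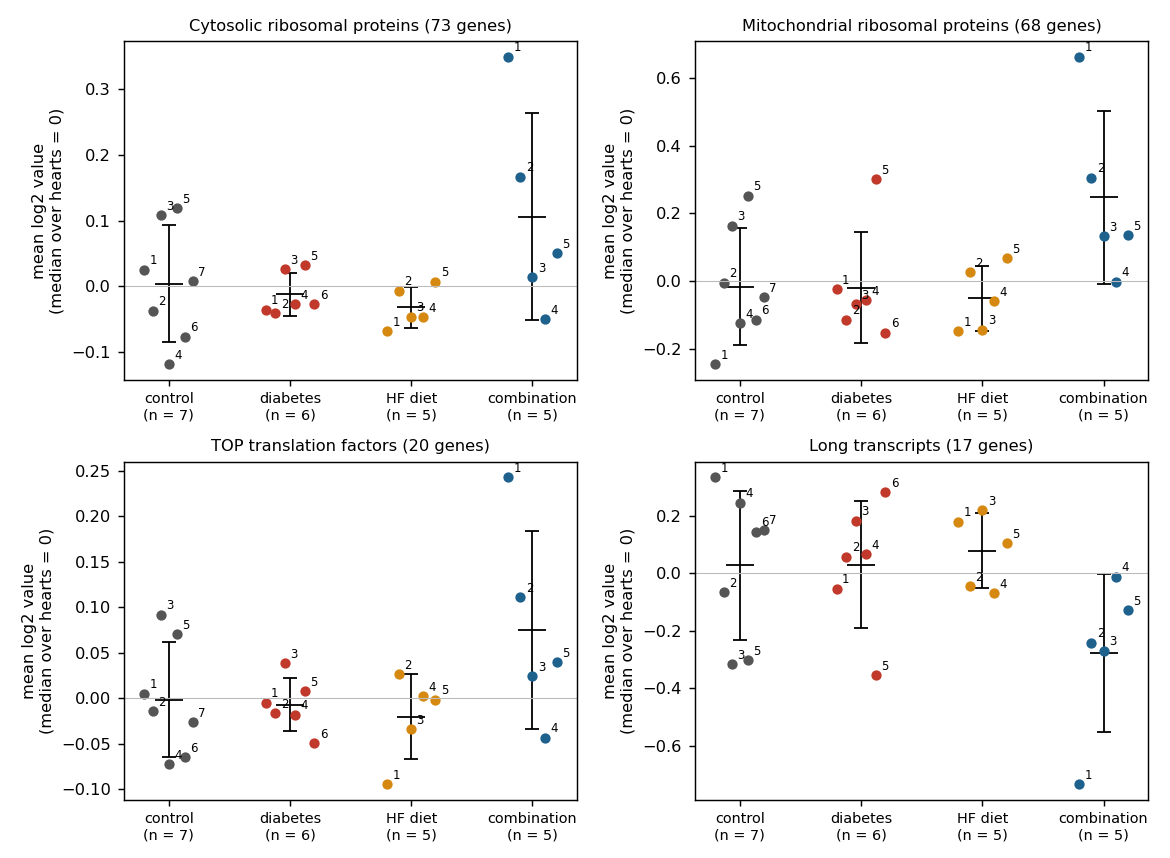
Mean centred log2 value of 4 gene lists in each of the 23 hearts, by exposure group. Points are hearts with their replicate number, horizontal ticks are group means and bars are SD; combination heart 1 is highest in the 3 translation lists, at 0.35 for the 73 cytosolic ribosomal proteins, and lowest for long transcripts, at -0.73.

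Combination heart 1 held the highest value of 51 of the 73 members, and 40 members exceeded 0.3 in it, against 11 in combination heart 2 and at most 7 in any other heart. Its array was also the widest of the 23 over all features, with an SD of 0.393. That SD was 0.311 in combination heart 2 and 0.335 in control heart 1, where 0 members exceeded 0.3. Counts past a fixed value depend on the spread of the whole array, and its part in them was not tested. At the other end, HF diet heart 3 held the lowest value of 21 members and control heart 4 that of 16. HF diet heart 3 had wide values in both directions, with 7 members above 0.3 and 13 below -0.3. The SD over members within this heart was 0.286, beside 0.0596 to 0.074 in the other 4 HF diet exposed hearts, and that over 68 mitochondrial ribosomal proteins was 0.317. Over all features the SD of HF diet heart 3 was 0.298, beside 0.164 to 0.212 in those 4 hearts. Its lowest members were Rps28 at -0.81, Rpl18 at -0.73, Rps4y2 at -0.61, Rpl10a at -0.55 and Rplp2 at -0.53, and its highest were Rps12 at 0.64, Rps3a at 0.59, Rpsa at 0.46, Rps18 at 0.41 and Rpl5 at 0.40, some of them chosen here after their values were seen. Both subunits were at both ends of this order.

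**Figure D2:**
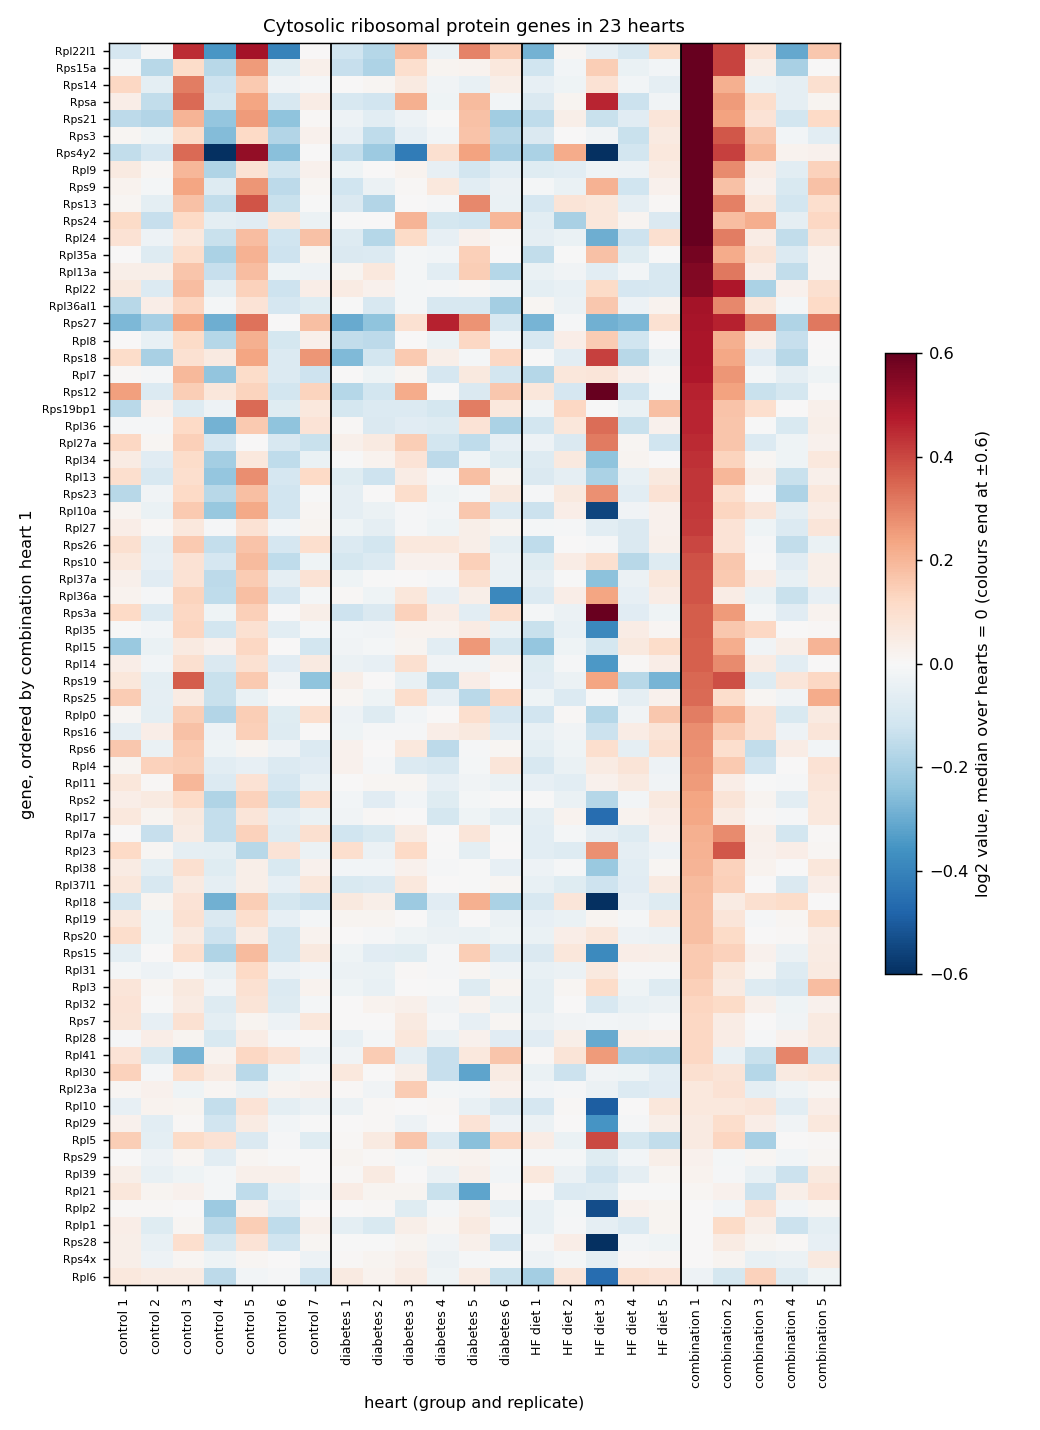
Centred log2 value of each of the 73 members (rows, ordered by combination heart 1) in each of the 23 hearts (columns, by group). Red is above and blue below the median heart, with colours ending at ±0.6; the column of combination heart 1 is red for 71 members, and that of HF diet heart 3 holds both colours.

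Members varied together over the 23 hearts. The mean correlation over the 2628 pairs of members was 0.456, and 2346 pairs had a correlation above 0, while it was 0.412 after the group means were taken out and 0.334 without combination heart 1. These points share their arrays and their centring, and the values describe the 23 hearts only. The mean pairwise correlation of the 68 mitochondrial ribosomal proteins was 0.690. Over the members the median SD across hearts was 0.133 on the log2 scale, below the 0.178 of all 28366 features, and 58 of the 73 members lay below that value. Of the members 55 average several probe sets, while 13537 probe sets without a symbol are features of their own. Averaging can lower an SD, so these values do not show that the genes vary less. Only Rpl41, a peptide of the large subunit named here after its values were seen, had a negative correlation with the mean of the other members, at -0.0834.

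The first question of the design was what each maternal exposure did to the newborn heart against controls. The threshold of the study was used, a difference beyond 0.322 on the log2 scale with an unadjusted p under 0.05, here from limma's linear model over all 28366 features. The 3 exposure groups were compared with the same 7 controls, so these comparisons are not independent. In diabetes exposed hearts 0 of 73 members passed in either direction, where 0.229% of all features were higher and 0.0811% lower. The differences ran from -0.080 to 0.043, 20 members were above 0 and the median was -0.015, while 50.2% of all features were above 0. No member had an unadjusted p under 0.05 in limma, where 1.6% of all features did, and the methods' t-test passed 0 members. The smallest p values belonged to Rpl36al1 (-0.071 ± 0.073, SE, limma's unadjusted p = 0.341) and Rpl30 (-0.063 ± 0.066, SE, limma's unadjusted p = 0.349), a large subunit protein.

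In HF diet exposed hearts 0 of 73 members passed, where 0.702% of all features were higher and 0.254% lower. The differences ran from -0.16 to 0.095, with 15 members above 0 and a median of -0.037, while 56% of all features were above 0 and their median was 0.014. No unadjusted p was under 0.05 in limma, where 2.69% of all features had one, and the methods' t-test passed 0 members. The smallest p values were those of Rps28 (-0.16 ± 0.10, SE, limma's unadjusted p = 0.133) and Rpl35 (-0.10 ± 0.073, SE, limma's unadjusted p = 0.170). Rps28, a small subunit protein at the mRNA exit side, stood at -0.81 in HF diet heart 3 and between -0.02 and 0.04 in the other 4 HF diet exposed hearts, and without that heart its difference from controls was 0.0027. Between diabetes and HF diet exposed hearts 0 of 73 members passed, where 0.229% of all features were higher in diabetes exposed hearts and 0.208% lower. The median difference was 0.021, with 47 members above 0, while 43.8% of all features were above 0.

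In combination exposed hearts 0 of 73 members passed against controls, where 2.11% of all features were higher and 1.23% lower. Of the members, 71 were above 0, with differences from -0.024 to 0.34 and a median of 0.090, beside 50.2% of all features above 0 with a median of 0.000414. An unadjusted p under 0.05 in limma was reached by 6 members (8.22%), all below the fold threshold, beside 9.85% of all features, and the smallest adjusted p was 0.497 (limma, Benjamini-Hochberg). The shift rested on combination hearts 1 and 2. Without combination heart 1 the median was 0.034 with 61 members above 0, and without both hearts it was -0.0024 with 36 members above 0. Without combination heart 4, the lowest of the group, 5 members passed and the median was 0.14, while the share of all features that were higher grew to 4.35%. Large and small subunit members had medians of 0.088 and 0.10.

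**Figure D3:**
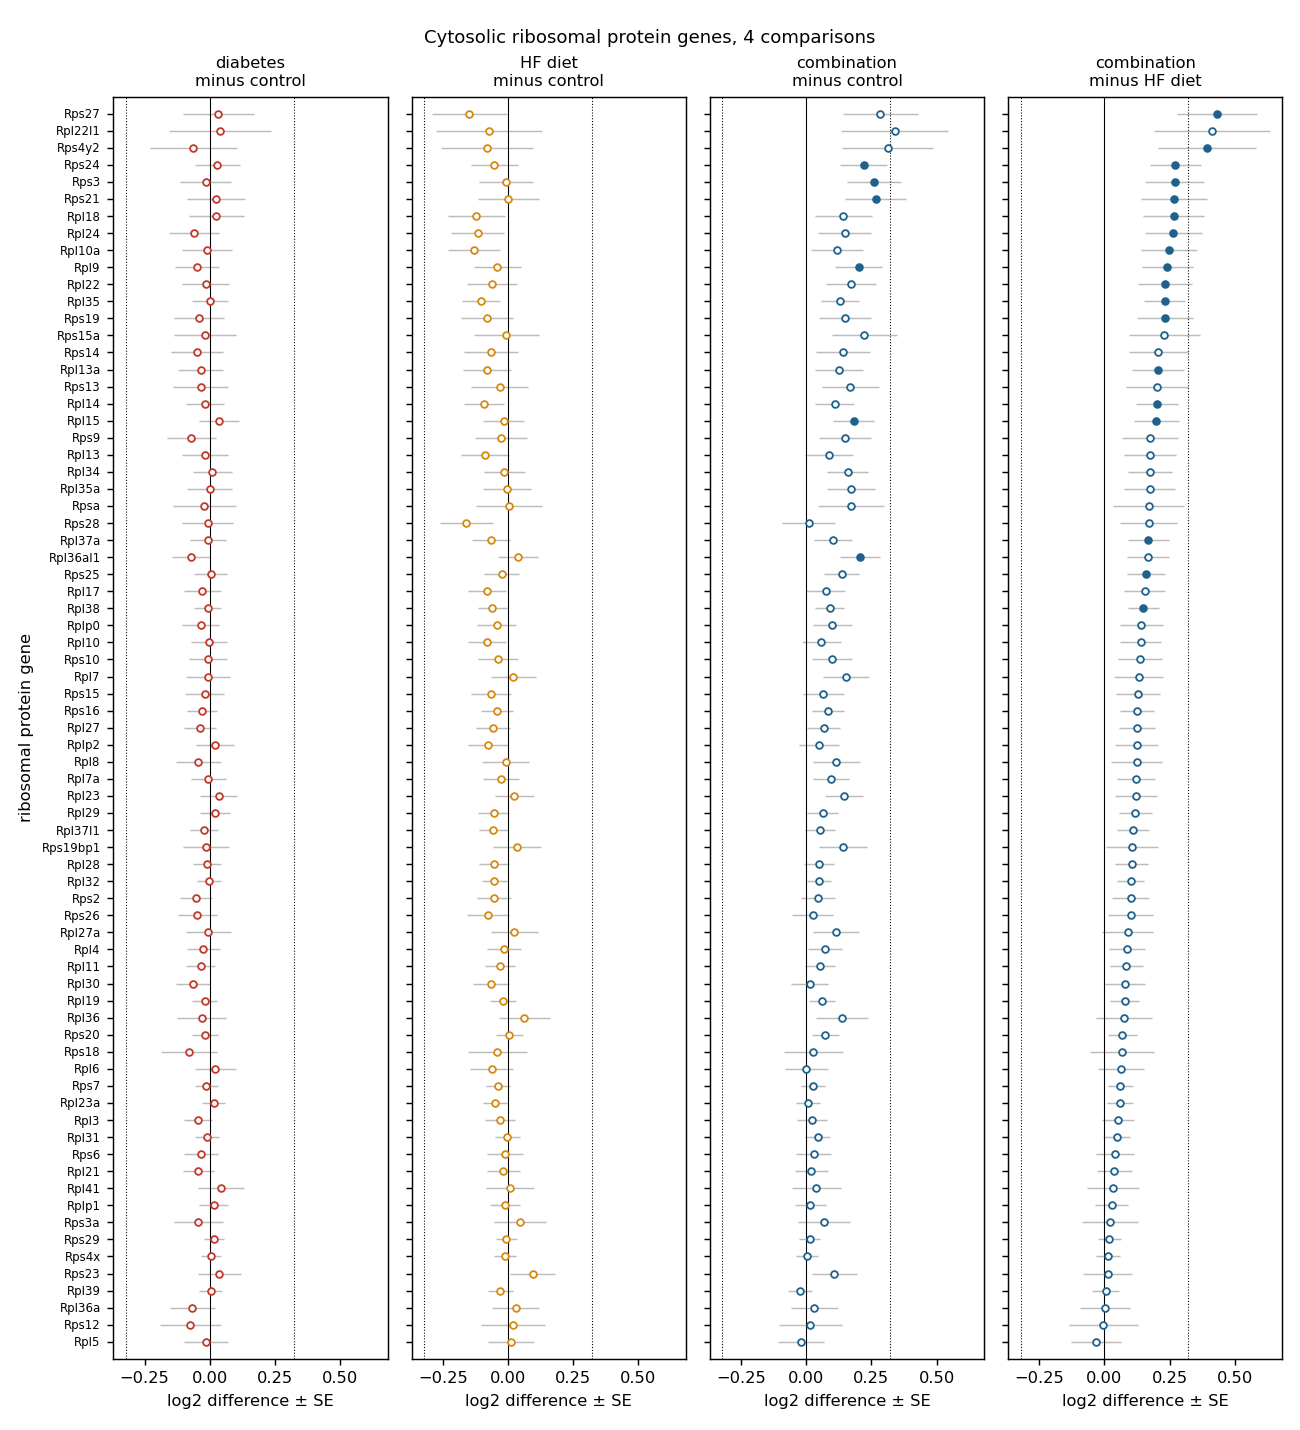
Log2 difference of each of the 73 members in 4 comparisons, with bars of 1 SE from limma, ordered by the difference of combination and HF diet exposed hearts. Filled points have an unadjusted p under 0.05 and dotted lines mark the threshold of 0.322; no point is filled in the first 2 panels, while 71 of 73 points lie above 0 in the third and in the fourth.

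The second question was whether the combination differed from either exposure alone, and these comparisons share the 5 combination exposed hearts with the one above. Against HF diet exposed hearts 2 of 73 members passed, both higher, where 2.83% of all features were higher and 2.92% lower. The members' share past the threshold was thus close to that of all features. Differences ran from -0.033 to 0.43, with 71 members above 0 and a median of 0.12, while 46.6% of all features were above 0 with a median of -0.013. An unadjusted p under 0.05 in limma was reached by 18 members (24.7%), beside 13.3% of all features in either direction, and the smallest adjusted p was 0.369 (limma, Benjamini-Hochberg). Without combination heart 1 the median was 0.071, and without hearts 1 and 2 the median was 0.032, with 55 members above 0 and 0 with such a p. Leaving out combination heart 4 gave 8 members past the threshold and a median of 0.16, with 5.24% of all features higher. Without HF diet heart 3 the count was 1 and the median 0.12, with 1.86% of all features higher.

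Against diabetes exposed hearts 1 of 73 members passed, higher in combination exposed hearts, where 1.65% of all features were higher and 1.4% lower. The median was 0.11, with 66 members above 0, while 50.6% of all features were above 0. An unadjusted p under 0.05 in limma was reached by 5 members (6.85%), beside 2666 of all 28366 features. Without combination hearts 1 and 2 the median was 0.0097, with 46 members above 0 and 0 past the threshold. Without combination heart 4 the count was 7, with 4.05% of all features higher. The interaction, which asks whether the combination departs from the sum of both single exposures, was above 0 in 70 members and 48.1% of all features. Its median over members was 0.15, and 1 of 73 passed, where 1.77% of all features passed upward and 2.61% downward. An unadjusted p under 0.05 in limma was reached by 4 members (5.48%), beside 1852 of all 28366 features. Without combination hearts 1 and 2 the interaction's median was 0.0575 with 57 members above 0 and 0 past the threshold. In every comparison no member reached an adjusted p under 0.05 in limma, nor did any of the 28366 features.

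Rps27, a small subunit protein with a zinc finger whose window above holds a run of 9 pyrimidines, was the member furthest from HF diet exposed hearts. Its combination exposed hearts read 0.50, 0.46, 0.31, -0.18 and 0.32, and its HF diet exposed hearts -0.28, -0.009, -0.29, -0.27 and 0.09. So 4 of 5 combination exposed hearts lay above every HF diet exposed heart and 1 lay among them. The difference was 0.43 ± 0.16 (SE), 1.35-fold, with an unadjusted p of 0.0105 and an adjusted p of 0.369 in limma. The exact permutation test, two-sided, gave p = 0.0238, and 0.3 remained without combination hearts 1 and 2 (limma's unadjusted p = 0.106). With the mean of erythroid genes as a covariate the difference was 0.29, under the threshold. Controls ran from -0.29 through a median of 0 to 0.32, and diabetes exposed hearts from -0.30 through -0.002 to 0.46, so Rps27 spread widely in each of these groups too. Against controls the difference was 0.28 ± 0.14 (SE), with an unadjusted p of 0.0595 in limma.

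Rps4y2 is a copy of Rps4x, which is on the X chromosome, and is annotated on chromosome 4 of the rat. Its combination exposed hearts read 0.69, 0.41, 0.20, 0.022 and 0.025, its HF diet exposed hearts -0.19, 0.22, -0.61, -0.11 and 0.065, and its diabetes exposed hearts ran from -0.42 through a median of -0.17 to 0.24. All 5 combination exposed hearts lay above 0, but they overlapped both groups. The difference was 0.39 ± 0.19 (SE) from HF diet exposed hearts (unadjusted p = 0.0491, adjusted p = 0.375, limma) and 0.38 ± 0.18 (SE) from diabetes exposed hearts (unadjusted p = 0.0497, adjusted p = 0.53, limma). Exact permutation tests, two-sided, gave p = 0.0794 and p = 0.0433. Both values sat at the edge of the threshold and lost the call under 22 and 20 of 33 alternatives, with 0.27 from HF diet exposed hearts without HF diet heart 3 and 0.29 without combination heart 1. Rps4x itself, measured by 2 probe sets, had an SD of 0.0282 over all hearts and a difference of 0.014 ± 0.045 (SE) from HF diet exposed hearts. The difference between both genes' changes was not tested.

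Rpl24, which sits at the subunit interface of the large subunit, was the member past the threshold for the interaction, at 0.32 ± 0.14 (SE) with an unadjusted p of 0.037 and an adjusted p of 0.675 in limma. Its combination exposed hearts read 0.62, 0.31, 0.046, -0.15 and 0.077, and the mean difference from controls was -0.058 in diabetes exposed, -0.12 in HF diet exposed and 0.15 in combination exposed hearts. The value lay on the fold threshold itself, and without combination heart 1 it was 0.21. Without combination hearts 1 and 2 it was 0.13, and the call was lost under 18 of 32 alternatives.

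Rpl36al1, a copy of Rpl36a, had the smallest unadjusted p of all members against diabetes exposed hearts, with a difference of 0.28 ± 0.079 (SE), 1.21-fold and so under the fold threshold (unadjusted p = 0.0019, adjusted p = 0.528, limma). Its combination exposed hearts read 0.50, 0.29, 0.066, -0.012 and 0.12 and its diabetes exposed hearts ran from -0.20 through a median of -0.096 to -0.004. These groups overlapped by 1 heart, combination heart 4, and the exact permutation test gave p = 0.00649, two-sided. Its difference from controls was 0.21 ± 0.076 (SE), with an unadjusted p of 0.0126 and an adjusted p of 0.497 in limma, and 0.073 without combination hearts 1 and 2. Between diabetes and HF diet exposed hearts its difference was -0.11 ± 0.079 (SE). Rpl36a, on the X chromosome, differed from controls by 0.032 ± 0.090 (SE).

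Rps3, which lines the mRNA entry channel and also takes part in DNA repair, differed from controls by 0.26 ± 0.10 (SE, unadjusted p = 0.0202, adjusted p = 0.497, limma). Its combination exposed hearts read 0.71, 0.37, 0.16, -0.02 and -0.06, and its controls ran from -0.26 through 0.01 to 0.12. Combination hearts 1 to 3 thus lay above every control and the other 2 among them. Without combination heart 5 the difference was 0.33 and past the threshold, without heart 4 it was 0.32 and past it too, and without hearts 1 and 2 it was 0.056. Its 2 probe sets correlated at 0.82.

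Rps20, at the head of the small subunit, was the member whose combination exposed hearts (0.18, 0.11, 0.002, 0.005 and 0.043) all lay above its diabetes exposed hearts, which ran from -0.041 to 0.000125. The gap between the groups was small against the spread among hearts, and the difference was 0.091 ± 0.054 (SE), with an unadjusted p of 0.104 in limma. Between these groups 0.377% of all features did not overlap. No other member was free of overlap between any pair of groups, where the share of all features was 0.0212% for diabetes and control, 0.127% for HF diet and control, 0.201% for combination and control, 1.62% for combination and HF diet, and 0.183% for diabetes and HF diet. Rpl35, which rings the exit of the peptide tunnel, had the smallest unadjusted p against HF diet exposed hearts (0.23 ± 0.079, SE, p = 0.00742, adjusted p = 0.369, limma; exact permutation p = 0.0476, two-sided). HF diet heart 3 read -0.39 and combination heart 1 0.36.

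**Figure D4:**
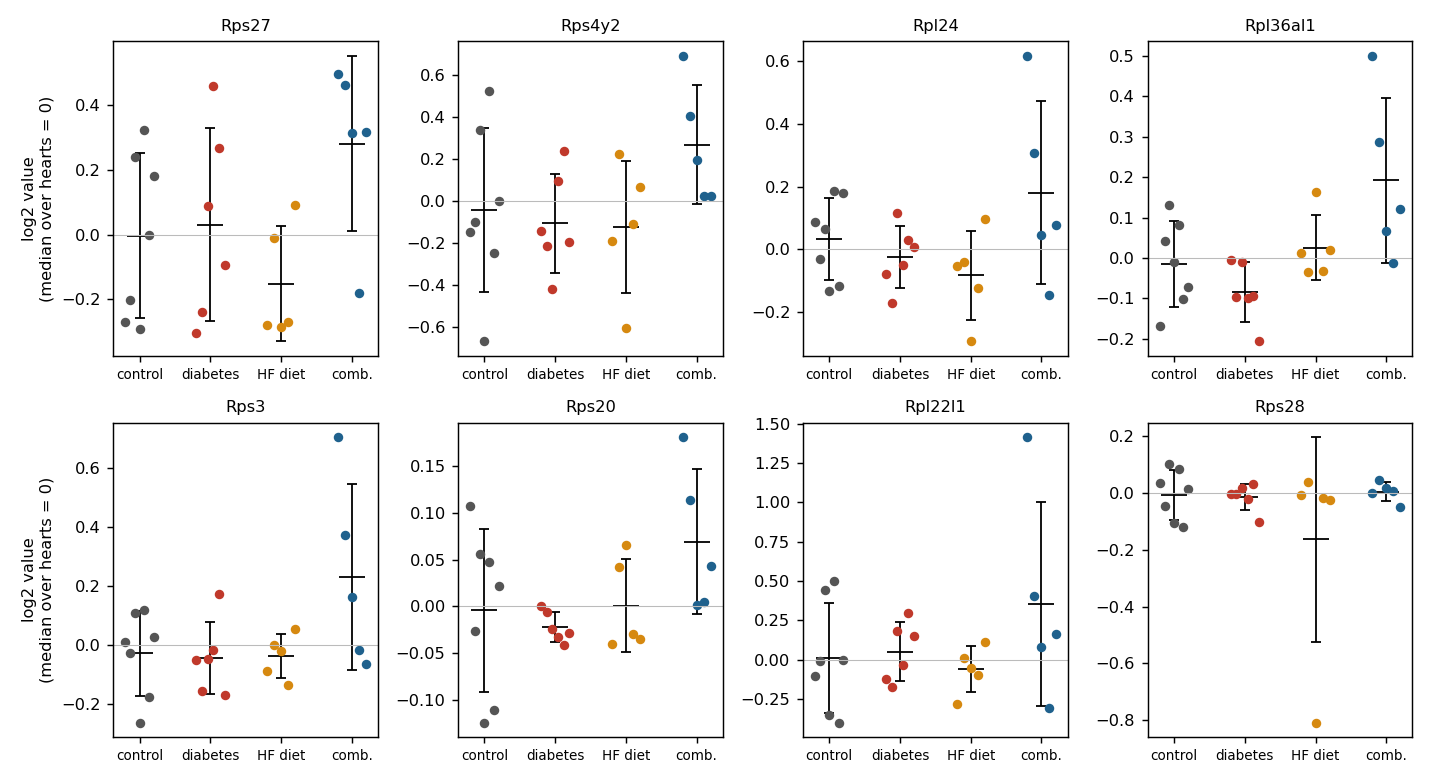
Centred log2 values of 8 members in each heart, by group (comb., combination exposed). Points are hearts in replicate order from left to right, ticks are group means and bars SD; combination heart 1 is the highest point of its group except for Rps28, which instead has 1 low HF diet exposed heart at -0.81.

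The members differed widely in spread. Rpl22l1 had an SD of 0.381 over the 23 hearts, Rps4y2 0.333 and Rps27 0.282, while Rps29 had 0.0254, Rps4x 0.0282 and Rps7 0.049. All 3 of the widest members were measured by 1 probe set. Rpl22l1, a copy of Rpl22 known to be raised where Rpl22 is lost, stood at 1.42 in combination heart 1 and at 0.41, 0.083, -0.31 and 0.16 in the other combination exposed hearts. Its difference from controls was 0.34 ± 0.21 (SE, limma's unadjusted p = 0.111), beyond the fold threshold but not the test. Without combination heart 1 it was 0.074 ± 0.16 (SE). Rpl22 read 0.55, 0.48, -0.19, 0.028 and 0.098 in the same hearts, 0.17 ± 0.096 (SE) from controls and 0.083 without combination heart 1. Rpl37l1 differed from controls by 0.054 ± 0.057 (SE), so each of the 4 copies had a positive difference and none passed the threshold there.

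The proteins of the stalk, which recruits translation factors to the large subunit, differed little between groups. Against controls the combination exposed hearts differed by 0.10 ± 0.075 (SE) in Rplp0, 0.016 ± 0.059 (SE) in Rplp1 and 0.048 ± 0.076 (SE) in Rplp2. Rplp0, often used as a reference gene, read 0.31 in its highest combination exposed heart and -0.092 in its lowest. Rplp2 was at -0.53 in HF diet heart 3. Of the pair that carries 5S RNA and binds Mdm2 when ribosome assembly is disturbed, Rpl5 differed by -0.020 ± 0.089 (SE) and Rpl11 by 0.052 ± 0.058 (SE). Rps6, the substrate of S6 kinase, differed by 0.029 ± 0.068 (SE), and Rpsa, also known as the laminin receptor, by 0.17 ± 0.13 (SE), with combination heart 1 at 0.76 and a difference of 0.036 without it. None of these 7 had an unadjusted p under 0.05 in any of the comparisons with controls.

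By role, 7 measured proteins of the tunnel and its exit had a median difference from controls of 0.060 in combination exposed hearts, and 4 proteins of mRNA entry and decoding one of 0.086. Of 15 measured genes that are mutated in Diamond-Blackfan anemia, an inherited failure of red cell formation, 0 passed against controls and 1, Rps27, against HF diet exposed hearts, with medians of 0.10 and 0.17. By the start of the transcript, the 29 members whose pyrimidine run began within 5 bases of the annotated start had a median of 0.075 against controls. The other 33, some with a run that begins earlier and crosses that start, had a median of 0.12. The median of all members was 0.090, and the difference between these sets was not tested.

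Single members are measured by uneven numbers of probe sets. Of the 73 genes 18 had 1 probe set and 12 had 7 or more, up to 21 for Rpl21, and 9 of the 261 member probe sets were identical in all hearts to an earlier one. Ribosomal protein genes have many processed copies in the genome, and an array cannot split near-identical copies, so which locus gives a signal is uncertain. Among the 55 genes with a correlation between probe sets, the lowest was above 0.8 in 41. It was lowest in Rpl31, whose 7 probe sets fell to 0.29. Rpl31 differed from controls by 0.044 ± 0.048 (SE) in combination exposed hearts. With each of the 261 probe sets fitted on its own, combination exposed hearts were higher in 1 (0.383%) against controls, 3 (1.15%) against diabetes exposed hearts and 5 (1.92%) against HF diet exposed hearts. These shares are below those of all features given above, 2.11%, 1.65% and 2.83%, and a gene with many probe sets has more chances to pass.

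Related genes were counted in the same way. In combination exposed hearts 2.11% of all features were higher than in controls and 2.83% higher than in HF diet exposed hearts. Against controls, 16 of 68 mitochondrial ribosomal protein genes were higher in combination exposed hearts and 0 lower, with all 68 above 0 and a median of 0.25. Against HF diet exposed hearts 24 were higher. Their mean was 0.663 and 0.305 in combination hearts 1 and 2. Combination hearts 3 to 5, at 0.132, -0.00165 and 0.136, lay within the control range of -0.246 to 0.252. Mrps10 differed from controls by 0.42 ± 0.12 (SE) and Mrpl19 by 0.56 ± 0.17 (SE), both past the threshold. Of 20 measured translation factors and others known for TOP mRNAs, 1, the initiation factor subunit Eif3i (0.39 ± 0.15, SE), passed against controls and 2, Eif3i and the elongation factor Eef1b2, against HF diet exposed hearts, with medians of 0.061 and 0.067. Of 45 ribosome biogenesis genes 0 passed in either of these comparisons, and Nop16 (0.22 ± 0.083, SE) and Nop58 (0.21 ± 0.092, SE) had the smallest p against controls. Of 12 RNA polymerase I genes 1 was higher than in controls and 3 were higher than in HF diet exposed hearts, among them Polr1e (0.57 ± 0.20, SE) and Polr1h (0.38 ± 0.14, SE). Of 15 genes from mTOR to the ribosome 0 passed, with Eif4ebp1, a repressor of cap-dependent translation, at 0.26 ± 0.10 (SE) against controls and a list median of 0.000429. Of 25 other cytosolic initiation and elongation factors 0 passed against controls and 1 against HF diet exposed hearts. None of these lists had a gene past the threshold in diabetes or HF diet exposed hearts against controls.

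Other lists moved with the same hearts. Combination heart 1 had a mean of 0.66 over mitochondrial ribosomal proteins and -0.73 over 17 chromatin regulator genes with long transcripts. These 17 form a technical list and not one of a cell type. In combination exposed hearts 7 of them were lower than in controls and 0 higher, beside 1.23% and 2.11% of all features. The mean of the 17 genes ran from -0.73 to -0.012 in combination exposed hearts and from -0.32 to 0.335 in controls. It ran from -0.35 to 0.28 in diabetes exposed and from -0.070 to 0.22 in HF diet exposed hearts. Combination heart 2 had the highest mean of 16 erythroid genes, 0.97, where its group began at -0.32, controls ran from -0.53 to 0.23, diabetes exposed hearts from -0.11 to 0.64 and HF diet exposed hearts from -0.23 to 0.038; 1 of these genes, Ahsp, was higher than in controls. Means of 12 fibroblast and 13 cardiomyocyte genes in combination heart 1 were -0.37 and -0.29, the lowest of their group. Control heart 1 stood apart through 10 lymphocyte and thymus genes (3.31) and 8 lung genes (2.90), with other hearts at most at 0.19 and 0.82. Without control heart 1 alone the members' median in combination exposed hearts against controls was 0.098, with 72 members above 0. This median was 0.034 without combination heart 1 alone and 0.040 without both hearts. In RNA of whole hearts a change in the share of a cell type and a change per cell cannot be told apart, and the part of these lists in the members' values was not tested. Macrophage, endothelial and cell cycle lists had medians of 0.073, -0.056 and 0.15 in combination exposed hearts against controls, where 1 cell cycle gene was higher and no other gene of these lists passed. Cd4 of the lymphocyte list and Ager of the lung list were lower than in controls. Against HF diet exposed hearts 4 erythroid genes and Lyz2 of the macrophage list were higher. There 2 cardiomyocyte genes and Tie1 of the endothelial list were lower, beside 2.83% of all features higher and 2.92% lower. The lymphocyte, lung, fibroblast and cell cycle lists had 0 past the threshold in that comparison.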

How the data were processed

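RNA (100 ng) of 23 newborn rat hearts was hybridized by the authors to Affymetrix Rat Gene 1.0 ST arrays and normalized in GeneSpring GX. The deposited log2 values of 29170 probe sets are centred by the authors on the median of each probe set over 23 arrays. The normalization method and the limits of the probe set filter were not given in the sources used here. Dim probe sets stayed in, since centred values hold no signal over background. Of the probe sets 15310 had 1 symbol, 323 several and 13537 none. Probe sets of 1 symbol were averaged, which gave 28366 features. limma 3.58.1 (R 4.3.3; lmFit, eBayes) was fitted to all hearts with 1 mean per group, followed by 6 pairwise contrasts and the interaction and Benjamini-Hochberg adjustment over all features. Precision is limited by the number of arrays, and p-values measure the spread between hearts, which may share dams. In simulated data of 28366 features, 5 against 7 independent hearts, 90% of features changed by 0.5 passed the threshold. No member differed by that much in any comparison, so this share says nothing of shifts as small as those of the members. Named genes were those past the threshold (otherwise the 2 with the smallest p) in each comparison, members whose groups do not overlap, paralogues and partners, the 3 widest and narrowest, stalk, 5S, Rps6 and Rpsa, and the gene whose probe sets correlate least; other lists name the 2 smallest p. Alternatives were the methods' t-test, quantile normalization, array weights, averaged code stems, an erythroid covariate, a replicate block, single probe sets, identical probe sets left out, features of 1 symbol alone and each heart left out. Members and lists were chosen with earlier results of these data known. Some genes of this family are not reported here.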

Additional observations from a re-analysis of the deposited data

Results flagged for a closer look

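Groups of named members were searched for a single heart far from the rest, judged by its gap to the nearest heart against the range of the group. Of 100 groups tested 12 held such a heart, where chance gives about 1 in 20. The groups are not independent, since members vary together, 5 of the 12 are 1 heart and some genes were named for a wide spread, so the number cannot be read as an excess. In HF diet exposed hearts these were Rps28 at -0.808, Rplp2 at -0.532 and Rpsa at 0.457, Rpl22 at 0.113 and Rpl36al1 at 0.162, all in HF diet heart 3. In combination exposed hearts they were Rps27 at -0.180, Rpl30 at -0.171 and Rplp2 at 0.088. In controls they were Rplp2 at -0.216 and Rpl31 at 0.118, and in diabetes exposed hearts Rpl36a at -0.389 and Rps6 at -0.158. The interaction of Rpl24, 0.322, passed the threshold with an unadjusted p of 0.037 and an adjusted p of 0.675 in limma, and lost the call under 18 of 32 alternatives. With 1 of 73 members past it, the share of members was below the 1.77% of all features that passed upward.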

How the results depend on the processing

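Counts of members past the threshold were small and moved with the setting. Against controls (0 of 73 members) the count was 1 with each probe set on its own and ran from 0 to 5 when each heart was left out, with changes for control hearts 3 and 5 and combination hearts 4 and 5. Against diabetes exposed hearts (1) it was 0 under quantile normalization, array weights, averaged code stems and without control heart 1 and combination heart 1, 3 by probe set, and 0 to 7 without single hearts. Against HF diet exposed hearts (2) the count of members was 1 under the methods' t-test, quantile normalization, array weights, averaged code stems and without control heart 1 and combination heart 1, 0 with the erythroid covariate, 5 by probe set, and 1 to 8 without single hearts. Of all features 802 were higher than in HF diet exposed hearts in the main fit. That number was 426 under quantile normalization, 286 with array weights and 461 with averaged code stems. It was 262 without control heart 1 and combination heart 1, and 319 with the erythroid covariate. For the interaction (1) the count of members was 0 under quantile normalization, averaged code stems and without control heart 1 and combination heart 1, 3 by probe set, and 0 to 5 without single hearts. Of all features 502 passed upward for the interaction in the main fit and 441 under quantile normalization. With averaged code stems 315 did, and 308 without control heart 1 and combination heart 1. The highest counts of members came without combination heart 4, or without control heart 4 for the interaction. Without combination hearts 1 and 2 these counts were all 0, and the median differences from controls, diabetes and HF diet exposed hearts were -0.00235, 0.00967 and 0.0322. Of all features 125, 79 and 115 were then higher in these comparisons, and 137 passed upward for the interaction. Leaving out combination hearts 1 and 2, or control heart 1 with combination heart 1, was chosen after seeing the data. Without single hearts the median against controls ran from 0.0336 (combination heart 1) to 0.137 (combination heart 4) around 0.0895, and single probe sets give a gene more chances to pass. That median was 0.0487 under quantile normalization, 0.0598 with the erythroid covariate and 0.0605 with array weights. It was 0.0786 with the replicate block and 0.0795 with averaged code stems. Under quantile normalization 1 member had an unadjusted p under 0.05 in limma against controls, where the main fit had 6. Features past the threshold against controls became fewer too, with 275 higher and 175 lower, where the main fit had 599 and 348. Without HF diet heart 3 the differences of Rps28 turned, to 0.00266 for HF diet against control and -0.0108 for diabetes against HF diet, and over single hearts left out they ran from -0.21 to 0.00266 and from -0.0108 to 0.201. Leaving out Rps19bp1 changed no count.

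Hearts of 1 replicate number did not deviate together (mean correlation -0.0053 over 31 pairs), so the numbers were not taken as pairing. With the replicate number as a block the counts were 0 against diabetes exposed hearts, 1 against HF diet exposed hearts and 0 for the interaction.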
